A study of Mus musculus with 4 samples.

Results

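The D-type cyclins Ccnd1, Ccnd2 and Ccnd3, the CDK inhibitors Cdkn1a, Cdkn1b, Cdkn1c, Cdkn2a, Cdkn2b and Cdkn2c, and the transcription factor gene Myc were followed across the epithelial cells of the mouse mammary gland. They are 10 of the 52636 genes in the count matrices. They were taken by gene symbol, with earlier results of these data known, and all 10 were present.

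Cells sorted for EpCAM, a surface protein of epithelial cells, were profiled in 4 libraries by single-cell RNA sequencing of transcript ends. Y541S giredestrant was a library from glands with the Y541S substitution in Esr1, the estrogen receptor gene, dosed with giredestrant, an oral estrogen receptor antagonist and degrader, at 30 mg/kg daily for 4 days. Y541S vehicle came from Y541S glands given the vehicle (MCT), WT giredestrant from wild-type Esr1 glands given the same giredestrant course, and WT vehicle from wild-type glands given vehicle. All mice were 6 months old and carried estradiol and progesterone pellets, so every library, vehicle included, was hormone-treated. Each group was 1 library, so no difference between groups was tested and no p-value is given. The intervals below are 95% intervals for the counting of molecules and leave out variation between mice. Zygosity of the substitution and the number of mice behind a library were not given in the sources used here.

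Of 30062 barcodes, 25950 passed the limits on molecules, genes and mitochondrial share, and 22852 met exactly 1 cell class rule. Hormone-sensing cells had at least 10 unique molecular identifiers (UMIs, each a tag on 1 captured transcript) per 10,000 from Esr1, Prlr, Areg and Foxa1. They were split at 3 Krt14 UMIs per 10,000 into Krt14-low and Krt14-high cells. Secretory cells had at least 10 from Wfdc18, Csn3, Elf5 and Kit, and basal cells at least 20 from Acta2, Myh11, Mylk and Tagln. The Krt14-low hormone-sensing class held 1499 Y541S giredestrant, 2074 Y541S vehicle, 1034 WT giredestrant and 627 WT vehicle cells. The Krt14-high class held 980 Y541S giredestrant cells, against 22, 9 and 15 in Y541S vehicle, WT giredestrant and WT vehicle, so it was described only in Y541S giredestrant. Basal cells numbered 998 to 4832 a library, although 1 label calls the material mature luminal. Median depth of the cells kept was lowest in Y541S giredestrant, at 6268 UMIs, against 15290 in Y541S vehicle, 21927 in WT giredestrant and 10868 in WT vehicle, and pairs of libraries shared 7 to 23 barcodes.

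In the textbook cycle, D cyclins bind CDK4 or CDK6 in G1, and the complex phosphorylates the retinoblastoma protein so that the cell can enter S phase. Estrogen and growth factor signals raise Ccnd1 and Myc in many mammary and breast cancer cells, and mice without Ccnd1 form few alveoli in pregnancy. The INK4 proteins (from Cdkn2a, Cdkn2b and Cdkn2c) block CDK4 and CDK6, while the CIP/KIP proteins (from Cdkn1a, Cdkn1b and Cdkn1c) bind cyclin-CDK complexes more widely. Cdkn1a is the classical p53 target, and Cdkn2a is best known for its rise in senescent cells. In the gland, hormone-sensing luminal cells carry the estrogen and progesterone receptors and signal to secretory luminal cells, which make milk, and to the contractile basal cells around them.

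Cdkn2a and Cdkn2b are neighbours on mouse chromosome 4, and their promoters are printed because the UMIs of both genes differed between the libraries below. In GRCm38, Cdkn2a lies at chr4:89274471-89294653 and Cdkn2b at chr4:89306299-89311039, both on the minus strand, with 11645 bases between them. Cdkn2a has a pair of protein-coding transcripts in the annotation, starting at 89294653 and 89282192, which encode p19Arf and p16Ink4a. Both run through the same last exon, so transcript-end UMIs could not separate them, and Cdkn2a below stands for both. The sequences are RefSeq promoters of GRCm38.p6, from 250 bases before to 50 bases after each start, 5′ to 3′ on the minus strand, with GC boxes (GGGCGG) in capitals. The RefSeq start of the downstream Cdkn2a window is that of the annotation above, and those of the other windows lie slightly inside the annotated genes.
Cdkn2a upstream start, chr4:89294570-89294869: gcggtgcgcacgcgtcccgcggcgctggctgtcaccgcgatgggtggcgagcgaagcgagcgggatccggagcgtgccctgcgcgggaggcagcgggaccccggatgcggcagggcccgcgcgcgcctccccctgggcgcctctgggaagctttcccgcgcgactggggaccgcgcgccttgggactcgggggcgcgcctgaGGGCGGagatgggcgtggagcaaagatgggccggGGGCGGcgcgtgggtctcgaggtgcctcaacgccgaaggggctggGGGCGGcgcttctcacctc
Cdkn2a downstream start, chr4:89282143-89282442: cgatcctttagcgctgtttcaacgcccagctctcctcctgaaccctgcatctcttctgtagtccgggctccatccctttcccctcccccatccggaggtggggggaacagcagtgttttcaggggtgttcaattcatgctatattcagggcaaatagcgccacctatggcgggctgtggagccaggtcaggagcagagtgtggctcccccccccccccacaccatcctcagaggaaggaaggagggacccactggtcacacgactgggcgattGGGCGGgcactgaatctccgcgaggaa
Cdkn2b, chr4:89310983-89311282: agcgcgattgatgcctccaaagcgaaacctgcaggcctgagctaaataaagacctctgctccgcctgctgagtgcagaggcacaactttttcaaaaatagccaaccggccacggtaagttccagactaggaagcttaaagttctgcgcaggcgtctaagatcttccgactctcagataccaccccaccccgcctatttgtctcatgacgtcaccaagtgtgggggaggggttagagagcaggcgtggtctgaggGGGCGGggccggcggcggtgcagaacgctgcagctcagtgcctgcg
The upstream Cdkn2a window held 3 GC boxes, the downstream one 1 and the Cdkn2b window 1. Over both strands, GGGCGG was found in 35.7% of 32851 promoters of the same length, so a match is common. None of the 3 windows held the letters of an estrogen response element (GGTCA and TGACC with 3 bases between, in 0.0700% of promoters), an E-box (CACGTG, in 7.15%), the motif that Myc binds, or a TATA box (TATAAA, in 13.6%). A match here is a description of letters and not a binding site.

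The D cyclin with the most UMIs differed between cell classes. Levels are the UMIs of a gene in the summed cells, scaled to a common total and given as CPM, in which each UMI is 1 transcript end, so no length scaling applies, although capture can differ between genes and was not measured. Ccnd1 led in secretory cells, with 602 CPM in Y541S giredestrant, 426 in Y541S vehicle, 424 in WT giredestrant and 505 in WT vehicle. Ccnd2 led in basal cells, with 285, 148, 109.6 and 111 CPM in the same order of libraries. Ccnd3 was the largest of the 3 in Krt14-low hormone-sensing cells of every library, although its level in WT vehicle, 84.1 CPM, was not above the 106 CPM of secretory cells. Of the summed D cyclin UMIs, Ccnd1 took 90.3%, 87.3%, 78.4% and 82.2% in secretory cells, and Ccnd2 took 74.2%, 70.5%, 59.5% and 59.5% in basal cells, again in that order.

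**Figure D1:**
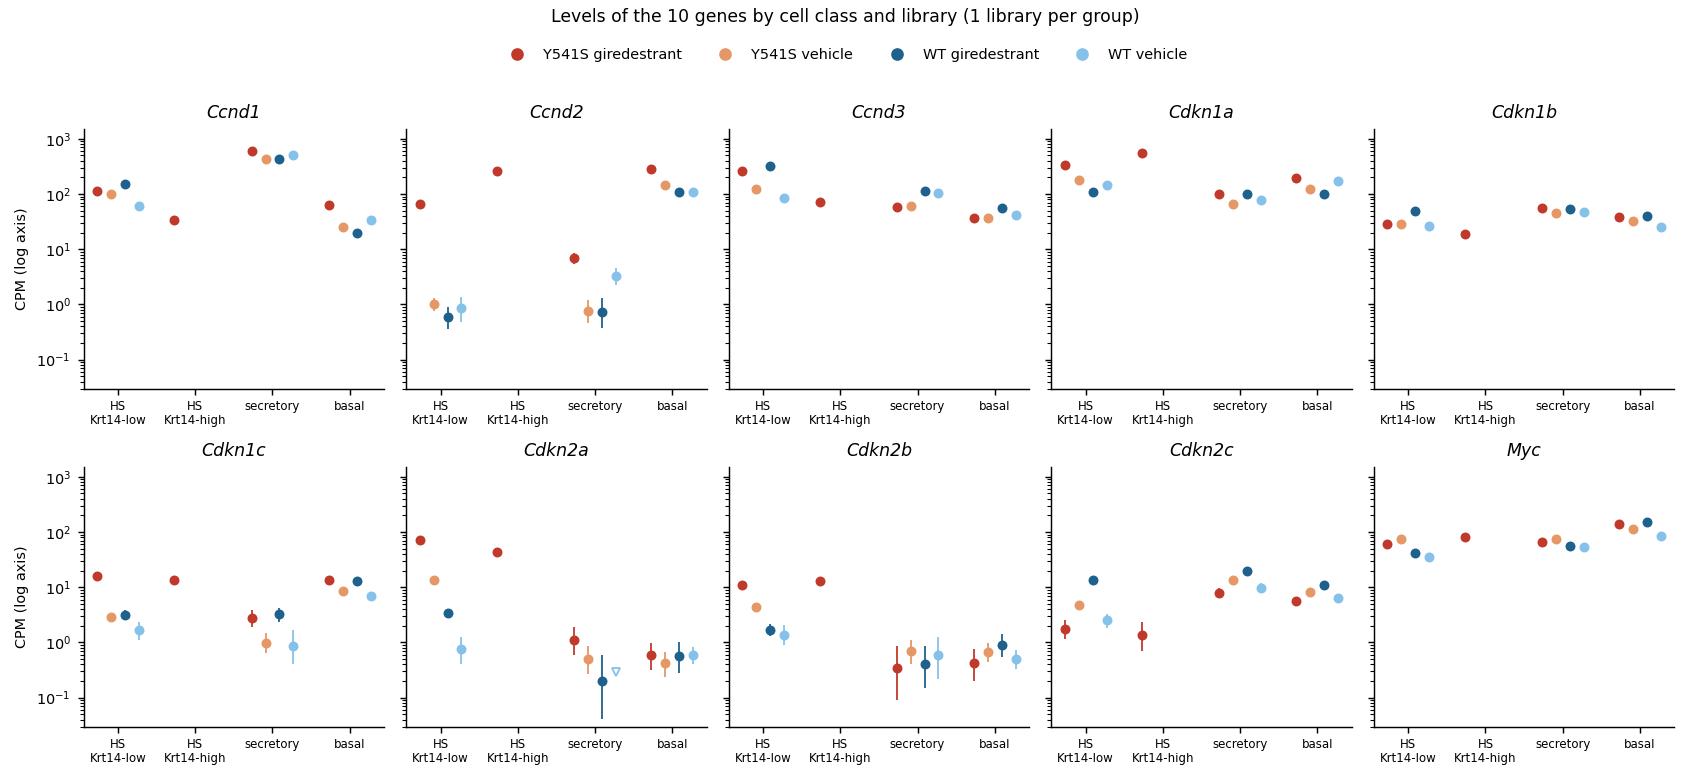
Level (CPM, log axis) of each of the 10 genes by cell class, 1 point per library, with bars for the 95% counting interval and an open triangle at the 3-UMI limit where no UMI was counted. Cdkn2a stood at 71.9 CPM in Krt14-low hormone-sensing cells of Y541S giredestrant and at 1.10 CPM or less in every secretory and basal sum.

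Among the inhibitors, Cdkn1a had the most UMIs in every hormone-sensing sum. Cdkn2a had 71.9 CPM in Krt14-low hormone-sensing and 0.589 in basal cells of Y541S giredestrant, while in WT vehicle it had 0.748 and 0.586 CPM with overlapping intervals. Cdkn1a took 71.9% of the summed UMIs of the 6 inhibitors in Krt14-low cells of Y541S giredestrant, 76.7% in Y541S vehicle, 60.8% in WT giredestrant and 81.8% in WT vehicle. Cdkn2a and Cdkn2b stayed at 1.10 CPM or less in secretory and basal cells of all 4 libraries. In all 4 libraries Cdkn1c was higher in the cells that met no class rule than in any class, with 28.6 CPM in Y541S giredestrant, 46.6 in Y541S vehicle, 62.2 in WT giredestrant and 27.2 in WT vehicle. Myc was highest in basal cells, at 142 CPM in Y541S giredestrant, 112.5 in Y541S vehicle, 151 in WT giredestrant and 84.9 in WT vehicle, above every other class of the same library.

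In Krt14-low hormone-sensing cells, the D cyclins differed under giredestrant by gene and genotype. Ccnd3 was higher under giredestrant in both genotypes. Ccnd1 was higher in WT, and Ccnd2 in Y541S, each by at least 1.5-fold relative to the median gene. That fold, on genes with a mean of at least 10 CPM and 20 UMIs over both libraries, is what called means from here on. In Y541S giredestrant over Y541S vehicle, 7 of the 10 genes passed that filter and 4 were called, all higher, where 39.4% of 8599 genes were called in either direction and 16.8% were called higher. This balance depended on the scaling: with TMM (trimmed mean of M-values) in place of the median gene, Ccnd3 at 0.56 and Cdkn1a at 0.40 were not called, and Myc was past the limit at -0.80. Ccnd2 passed the level filter only through Y541S giredestrant, so it had to differ. In WT giredestrant over WT vehicle, 5 passed and 3 were called, where 32.2% of 8471 genes were called. The median gene itself was 0.23 higher (log2) in Y541S giredestrant and 0.34 higher in WT giredestrant, and each relative ratio is set against it.

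Ccnd3, the D cyclin with the most UMIs in these cells, had 258 CPM (4161 UMIs) in Y541S giredestrant and 125 CPM (6820 UMIs) in Y541S vehicle. It had 328 CPM (11678 UMIs) in WT giredestrant and 84.1 CPM (1575 UMIs) in WT vehicle. Both giredestrant libraries stood above both vehicle libraries, with no overlap of counting intervals. The relative log2 ratio was 0.81 [0.76 to 0.87] in Y541S and 1.63 [1.55 to 1.70] in WT, a difference of -0.81 [-0.91 to -0.72] for Y541S minus WT. With every cell thinned to 2000 UMIs, a Ccnd3 UMI was seen in 32.7% and 19.7% of Y541S giredestrant and Y541S vehicle cells, and in 46.4% and 13.7% of WT giredestrant and WT vehicle cells. Without thinning, those shares were 66.3%, 77.6%, 95.6% and 65.9% at median depths of 9260, 25121, 29584 and 28914 UMIs. In Krt14-low cells without a UMI of Krt14, Krt5, Krt6a or Trp63, Ccnd3 had 381 CPM in Y541S giredestrant and 346 in WT giredestrant. Those cells had 128 CPM in Y541S vehicle and 130 in WT vehicle, with overlapping intervals, so the lower ratio in Y541S was not seen in their CPM.

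Ccnd1, the D cyclin most tied to estrogen in the mammary gland, had 115 CPM (1849 UMIs) in Y541S giredestrant and 100.6 CPM (5486 UMIs) in Y541S vehicle. It had 149 CPM (5314 UMIs) in WT giredestrant, against 61.5 CPM (1152 UMIs) in WT vehicle. WT vehicle was the lowest of the 4 and WT giredestrant the highest. The relative log2 ratio under giredestrant was -0.04 [-0.12 to 0.03] in Y541S, which was not called, and 0.94 [0.85 to 1.03] in WT. Between vehicle libraries, Y541S over WT gave 0.61 [0.51 to 0.70], just past the limit for a call, where 10.3% of 8050 genes were called. It was 0.51, and not called, in cells without a UMI of Krt14, Krt5 or Trp63.

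Ccnd2, which is the D cyclin of basal cells here, had 66.0 CPM (1064 UMIs) in Krt14-low hormone-sensing cells of Y541S giredestrant. The same class had 1.01 CPM (55 UMIs) in Y541S vehicle, 0.590 CPM (21 UMIs) in WT giredestrant and 0.855 CPM (16 UMIs) in WT vehicle. Y541S giredestrant stood apart from the other 3 libraries, which lay close to one another with overlapping intervals. The relative log2 ratio was 5.80 [5.41 to 6.22] over Y541S vehicle, a 55.7-fold difference, and 6.82 [6.20 to 7.51] over WT giredestrant, 113-fold. Over Y541S vehicle it was 2.86 in cells without a UMI of Krt14, Krt5, Krt6a or Trp63. Thinned to 2000 UMIs, 10.7% of these cells in Y541S giredestrant had a Ccnd2 UMI, against 0.0977%, 0.293% and 0.643% in Y541S vehicle, WT giredestrant and WT vehicle. Unthinned shares were 26.2%, 1.30%, 1.64% and 1.44%. In secretory cells of Y541S giredestrant, which had 6.85 CPM of Ccnd2 against 0.765 CPM in Y541S vehicle, the unthinned share was 3.53% at a median depth of 6991 UMIs.

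The D cyclin make-up of Krt14-low cells differed between the libraries. Ccnd1, Ccnd2 and Ccnd3 made up 26.1%, 15% and 58.8% of D cyclin UMIs in Y541S giredestrant, and 44.4%, 0.445% and 55.2% in Y541S vehicle. They made up 31.2%, 0.123% and 68.6% in WT giredestrant, and 42.0%, 0.583% and 57.4% in WT vehicle. The sum of the 3 was 439 CPM in Y541S giredestrant and 227 in Y541S vehicle, and 478 CPM in WT giredestrant and 146.5 in WT vehicle. The summed D cyclin level was thus higher under giredestrant in both genotypes, and Ccnd3 made up the largest part of it in each library.

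**Figure D2:**
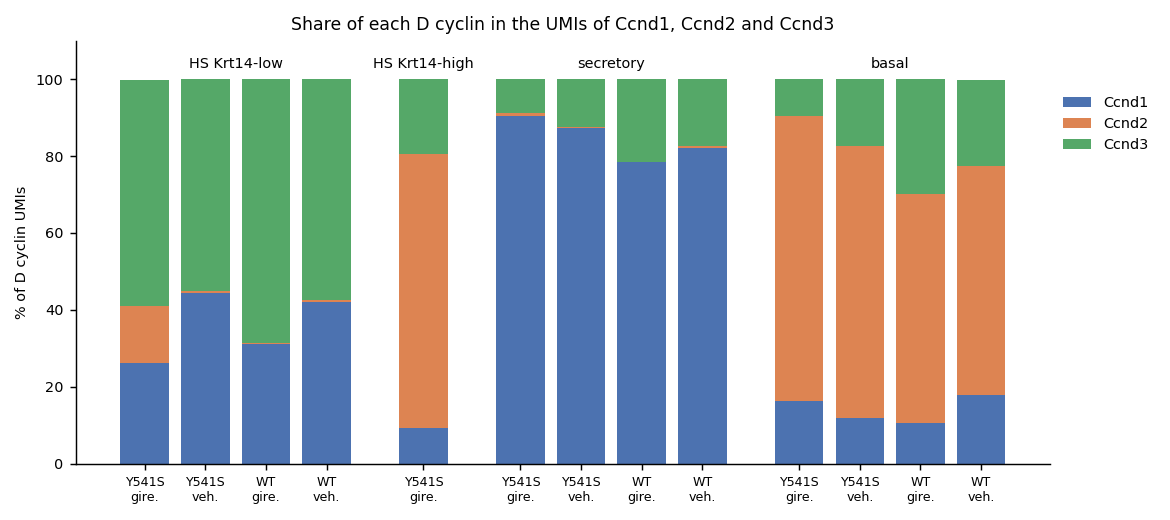
Share (%) of Ccnd1, Ccnd2 and Ccnd3 in their summed UMIs, 1 bar per library within each cell class (gire., giredestrant; veh., vehicle). Ccnd2 took 71.3% in Krt14-high hormone-sensing cells of Y541S giredestrant and 0.583% or less in Krt14-low cells of the other 3 libraries.

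Among the INK4 inhibitors in the same cells, Cdkn2a differed between all 4 libraries. It had 71.9 CPM (1159 UMIs) in Y541S giredestrant, 13.5 CPM (734 UMIs) in Y541S vehicle, 3.46 CPM (123 UMIs) in WT giredestrant and 0.748 CPM (14 UMIs) in WT vehicle. None of the 4 intervals overlapped, and both Y541S libraries stood above both WT libraries. The relative log2 ratio under giredestrant was 2.19 [2.05 to 2.32] in Y541S, a called 4.55-fold difference. In WT it was 1.87 [1.07 to 2.78] on a mean level under 10 CPM, so it was not among the genes that could be called. The difference between these ratios, 0.32 [-0.49 to 1.12], included 0. Y541S over WT was 4.07 [3.31 to 4.95] between vehicle libraries, below the level filter, and 4.39 [4.12 to 4.67] between giredestrant libraries, a 21.0-fold difference where 36.1% of 8883 genes were called. Cdkn2a and Ccnd2 passed the filter in that comparison only through Y541S giredestrant.

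Counted per cell, Cdkn2a UMIs were seen in the most cells in Y541S giredestrant. Thinned to 2000 UMIs, 11.8% of Krt14-low cells had a Cdkn2a UMI in Y541S giredestrant, 3.27% in Y541S vehicle, 0.293% in WT giredestrant and 0.322% in WT vehicle. Without thinning, the shares were 38.4%, 16.5%, 6.77% and 1.44%. Basal cells, which had 0.417 to 0.589 CPM, gave unthinned shares of 0.357%, 0.441%, 1% and 0.517% at median depths of 5488, 12227, 18248 and 10467 UMIs. In WT vehicle secretory cells no Cdkn2a UMI was counted, which allows up to 0.292 CPM by the limit of 3 UMIs and 0.359 CPM by the exact Poisson interval. The class rule reads genes that giredestrant can change, and in the cells that met no rule Cdkn2a had 10.09 CPM in Y541S giredestrant, 1.99 in Y541S vehicle, 3.04 in WT giredestrant and 0.461 in WT vehicle. At thinned depth the share in WT giredestrant rests on so few cells that it cannot be set apart from WT vehicle.

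Cdkn2b, the INK4 gene next to Cdkn2a, followed the same order at a lower level, with 10.98 CPM (177 UMIs) in Y541S giredestrant, 4.33 CPM (236 UMIs) in Y541S vehicle, 1.71 CPM (61 UMIs) in WT giredestrant and 1.39 CPM (26 UMIs) in WT vehicle. The WT intervals overlapped. Its relative log2 ratio was 1.11 [0.82 to 1.40] under giredestrant in Y541S and 1.54 [0.95 to 2.18] for Y541S over WT in vehicle, both below the level filter. Cdkn2c, another INK4 gene, had another order, with 1.74 CPM (28 UMIs) in Y541S giredestrant, 4.80 CPM (262 UMIs) in Y541S vehicle, 13.4 CPM (477 UMIs) in WT giredestrant and 2.51 CPM (47 UMIs) in WT vehicle. Its relative log2 ratio under giredestrant was -1.70 [-2.32 to -1.13] in Y541S and 2.08 [1.65 to 2.54] in WT, also below the filter. WT giredestrant was the highest library for Cdkn2c, and the intervals of Y541S giredestrant and WT vehicle, the lowest, overlapped.

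Of the CIP/KIP inhibitors, Cdkn1a had 330.3 CPM (5323 UMIs) in Y541S giredestrant and 179 CPM (9746 UMIs) in Y541S vehicle. It had 110.3 CPM (3924 UMIs) in WT giredestrant and 147.5 CPM (2762 UMIs) in WT vehicle. The order was thus opposite in the genotypes, giredestrant above vehicle in Y541S and below it in WT, with no overlap of intervals. The relative log2 ratio was 0.65 [0.61 to 0.70] in Y541S and -0.76 [-0.83 to -0.69] in WT, both called, and the ratios differed by 1.41 [1.33 to 1.497]. Without centring on the median gene, the WT ratio was -0.42 and not called, and with TMM scaling the Y541S ratio was 0.40 and not called. In cells without a UMI of Krt14, Krt5, Krt6a or Trp63 the ratios were -0.05 in Y541S and -0.30 in WT, neither called and no longer opposite.

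Cdkn1b had 28.3 CPM in Y541S giredestrant, 28.7 in Y541S vehicle, 49.2 in WT giredestrant and 26.5 in WT vehicle, with overlapping intervals in all but WT giredestrant. Its relative log2 ratio under giredestrant was -0.25 [-0.41 to -0.10] in Y541S and 0.56 [0.41 to 0.70] in WT, neither called, while Y541S giredestrant over WT giredestrant gave a called -0.79 [-0.94 to -0.64]. Cdkn1c, an imprinted inhibitor, had 16.2 CPM (261 UMIs) in Y541S giredestrant, 2.88 CPM (157 UMIs) in Y541S vehicle, 3.20 CPM (114 UMIs) in WT giredestrant and 1.66 CPM (31 UMIs) in WT vehicle. Y541S giredestrant was the only one of the 4 above 10 CPM, and its relative log2 ratio over Y541S vehicle was 2.26 [1.97 to 2.56], below the level filter on the mean. The 6 inhibitors together summed to 459 CPM in Y541S giredestrant, 233 in Y541S vehicle, 181 in WT giredestrant and 180.3 in WT vehicle.

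Myc, whose protein drives growth and ribosome production and which the estrogen receptor induces in many breast cells, had 59.6 CPM (961 UMIs) in Y541S giredestrant and 74.2 CPM (4048 UMIs) in Y541S vehicle. It had 41.9 CPM (1491 UMIs) in WT giredestrant and 34.6 CPM (648 UMIs) in WT vehicle. Both Y541S libraries stood above both WT libraries in all Krt14-low cells, but not in those without a UMI of Krt14, Krt5, Krt6a or Trp63. There Myc had 33.5 CPM in Y541S giredestrant, 60.4 in Y541S vehicle, 39.6 in WT giredestrant and 29.9 in WT vehicle. In all Krt14-low cells the relative log2 ratio under giredestrant was -0.55 [-0.65 to -0.45] in Y541S and -0.06 [-0.20 to 0.07] in WT, neither called. The Y541S value passed the limit, as lower, with TMM scaling (-0.80), centred on genes with 20 UMIs (-0.66), and in cells without a UMI of Krt14, Krt5 or Trp63 (-0.77). Y541S over WT was 0.997 [0.88 to 1.12] between vehicle libraries, where 4.17% of genes were called higher, and 0.52 [0.40 to 0.64], not called, between giredestrant libraries. In the vehicle comparison Ccnd1 and Myc were the 2 genes called among the 5 that passed the filter.

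**Figure D3:**
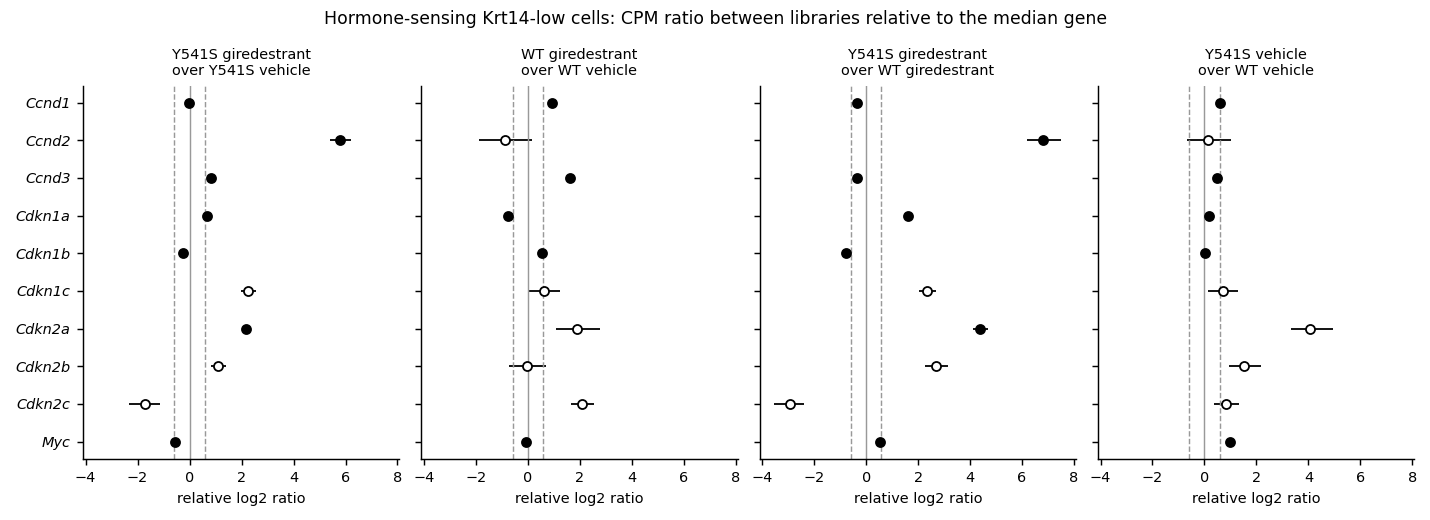
Relative log2 ratio (CPM ratio between libraries minus that of the median gene) of each gene in Krt14-low hormone-sensing cells, 1 panel per comparison, with 95% counting intervals and dashed lines at 1.5-fold. Filled points passed the level filter and open points did not; Ccnd2 lies at 5.80 and 6.82 in the comparisons that have Y541S giredestrant on top.

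Within Y541S giredestrant, the levels of some of these genes differed between hormone-sensing cells above and below the Krt14 split. Of 9 genes that passed the filter between Krt14-high and Krt14-low cells, 5 were called, where 32.0% of 8549 genes were called. Ccnd2 had 267 CPM in Krt14-high and 66.0 in Krt14-low cells, Cdkn1a 553 and 330.3, and Myc 81.1 and 59.6, all called higher in Krt14-high cells. Ccnd1 had 34.4 CPM in Krt14-high and 115 in Krt14-low cells, and Ccnd3 72.9 and 258, both called lower. Cdkn2a had 43.6 CPM in Krt14-high and 71.9 in Krt14-low cells, a relative log2 ratio of -0.50 [-0.67 to -0.34] that was not called. Ccnd2 in Krt14-high cells was below the basal level of the same library, 285 CPM, by a relative log2 ratio of -0.13 [-0.20 to -0.07] that was not called, and took 71.3% of their D cyclin UMIs. Krt5, Trp63 and Oxtr summed to 238 CPM in Krt14-high and 47.8 in Krt14-low cells, and the hormone-sensing genes Pgr, Cited1 and Prom1 to 173.5 and 495.5 CPM.

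These levels moved in steps with Krt14. From hormone-sensing cells without a Krt14 UMI through 4 rising ranges of Krt14 (954, 545, 348, 393 and 239 cells), Ccnd2 had 55.9, 78.7, 202, 294 and 315 CPM. Cdkn1a had 311.5, 354, 507.5, 562 and 604 CPM, and Myc 53.1, 67.8, 73.6, 82.2 and 90.0 CPM. Ccnd3 had 292, 216, 99.8, 67.7 and 42.7 CPM, so Ccnd2 overtook Ccnd3 between the second range and the third. Cdkn2a had 71.8, 72.1, 45.2, 38.3 and 49.99 CPM, and Cdkn2b stayed between 10.9 and 15.5 CPM. Esr1 itself held between 370.5 and 428 CPM over the ranges, while Pgr, the progesterone receptor gene, had 362, 330.5, 207, 132 and 119 CPM. The basal genes Krt5 and Trp63 moved with Krt14, with 3.46, 5.59, 30.0, 89.5 and 110.4 CPM for Krt5 and 32.0, 57.4, 132, 194 and 158 CPM for Trp63, and their part in the levels was not tested.

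**Figure D4:**
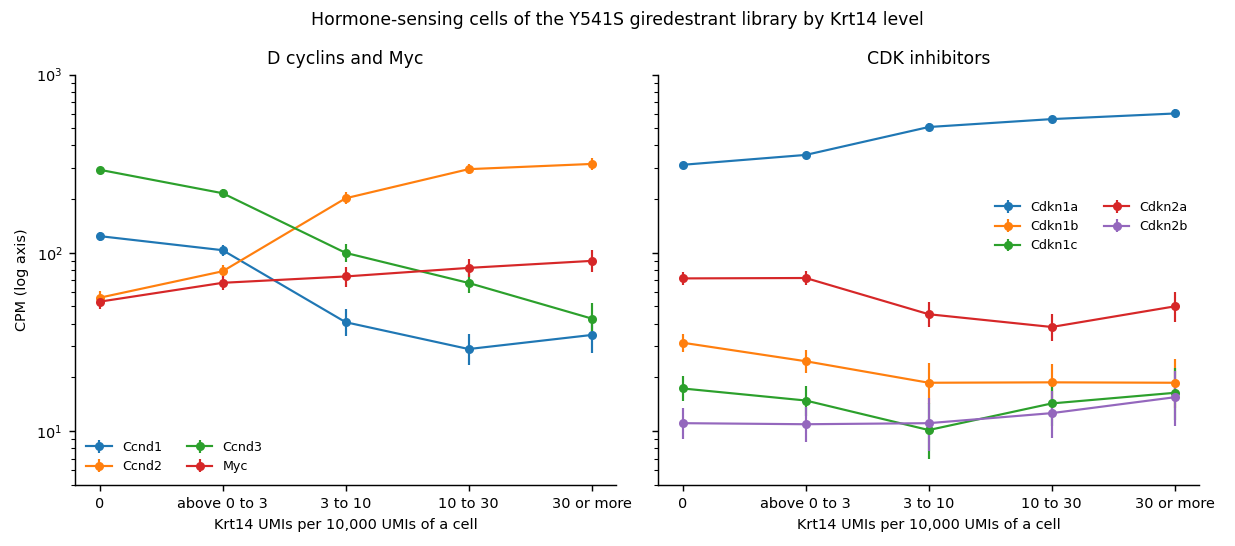
Levels (CPM, log axis) in hormone-sensing cells of Y541S giredestrant over 5 ranges of Krt14 UMIs per 10,000, with 95% counting intervals; Cdkn2c, at 2.12 CPM or less in every range, is not drawn. Ccnd2 and Cdkn1a were highest, and Ccnd3 lowest, in the range with the most Krt14.

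Markers of basal cells also differed below the Krt14 split, in the cells compared between libraries. The basal genes Krt5, Trp63 and Oxtr, all 3 detected in each library, summed to 47.8 CPM in Krt14-low cells of Y541S giredestrant, against 2.59 in Y541S vehicle, 4.52 in WT giredestrant and 4.11 in WT vehicle. Basal cells had 859, 701, 999.7 and 695.5 CPM of them. Trp63 alone gave 43.3 CPM of the sum in Krt14-low cells of Y541S giredestrant. Krt5 had 4.41 CPM there, against 0.990 in Y541S vehicle, 2.84 in WT giredestrant and 1.335 in WT vehicle. Krt6a, a stress keratin, had 644 CPM in Krt14-low cells of Y541S giredestrant, 185 in Y541S vehicle, 31.7 in WT giredestrant and 359 in WT vehicle. Basal cells had 0.458 to 28.6 CPM of Krt6a, so it was higher in hormone-sensing than in basal cells of these libraries. Within hormone-sensing cells of Y541S giredestrant, Krt6a rose with Krt14, with 545.6, 766.7, 2174, 2454 and 3058 CPM over the rising ranges above. Pgr, Cited1 and Prom1, genes of hormone-sensing cells outside the class rule, summed to 495.5, 724, 1160 and 906 CPM in the order given. They did not move together: Pgr had 91.8 CPM in WT giredestrant and 396 in WT vehicle, and Cited1 had 1021 and 453.9 CPM. Fibroblast genes, mostly Dcn, summed to 7.14, 136, 24.7 and 83.3 CPM in that order, with Col1a1 and Col1a2 at 0 in WT vehicle. Endothelial genes summed to 24.4, 2.13, 3.63 and 2.78 CPM with Kdr at 0 in all but WT vehicle. Pecam1 alone gave 23.9 CPM of the sum in Y541S giredestrant, with Cdh5 and Emcn at 0.310 and 0.248 CPM. Immune genes summed to 9.47 CPM or less.

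Most of the differences were also seen in Krt14-low cells without any UMI of Krt14, Krt5 or Trp63, a selection made after these values were known. It kept 818 of 1499 Y541S giredestrant, 1805 of 2074 Y541S vehicle, 921 of 1034 WT giredestrant and 467 of 627 WT vehicle cells. Shallow cells lack such UMIs more easily, and the cells kept had median depths of 7177, 24792, 28898 and 28034 UMIs in that order. The selection was thus weakest in Y541S giredestrant and could not show that its cells were free of basal RNA. Ccnd2 then had 42.6 CPM (317 UMIs) in Y541S giredestrant, against 0.642 (30 UMIs), 0.426 (13 UMIs) and 0.297 (4 UMIs) in Y541S vehicle, WT giredestrant and WT vehicle. Cdkn2a had 73.8, 13.6, 3.67 and 0.816 CPM, and Ccnd3 308, 125, 329 and 82.1 CPM, in the same order. Cdkn1a had 294 CPM in Y541S giredestrant and 179 in Y541S vehicle, a relative log2 ratio of 0.46 that was no longer called.

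Leaving out cells with a Krt6a UMI as well moved Ccnd2, Ccnd3, Cdkn1a and Myc further in Y541S giredestrant. That kept 487, 755, 674 and 132 cells. Ccnd2 had 8.02 CPM (34 UMIs) in Y541S giredestrant, against 0.909 in Y541S vehicle, 0.525 in WT giredestrant and no UMI in WT vehicle, and its relative log2 ratio over Y541S vehicle was 2.86. Cdkn1a had 173 CPM in Y541S giredestrant and 147 in Y541S vehicle, a relative log2 ratio of -0.05. Cdkn2a kept 72.2 CPM in Y541S giredestrant and 14.3 in Y541S vehicle. Ccnd3 had 381 CPM in Y541S giredestrant, 128 in Y541S vehicle, 346 in WT giredestrant and 130 in WT vehicle. Myc had 33.5 CPM in Y541S giredestrant, against 52.05 with such cells kept and 59.6 in all its Krt14-low cells. The levels of Ccnd2, Ccnd3, Cdkn1a and Myc in Y541S giredestrant thus differed with the presence of Krt6a UMIs, and those of Cdkn2a hardly did. Such shifts were not limited to Y541S giredestrant. With Krt6a added to the selection, Cdkn1a went from 179 to 147 CPM in Y541S vehicle, from 111 to 94.3 in WT giredestrant and from 145 to 96.1 in WT vehicle. Ccnd3 went from 82.1 to 130 CPM in WT vehicle, but only from 125 to 128 in Y541S vehicle. Myc went from 74.2 to 60.4 CPM in Y541S vehicle. Cells without a UMI of Krt14, Krt5, Krt6a or Trp63 were shallower in Y541S giredestrant, with a median of 6650 UMIs, against 9260 in all its Krt14-low cells. Their medians were 23074 UMIs in Y541S vehicle, 26278.5 in WT giredestrant and 23344.5 in WT vehicle, so this selection too was weakest in Y541S giredestrant.

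**Figure D5:**
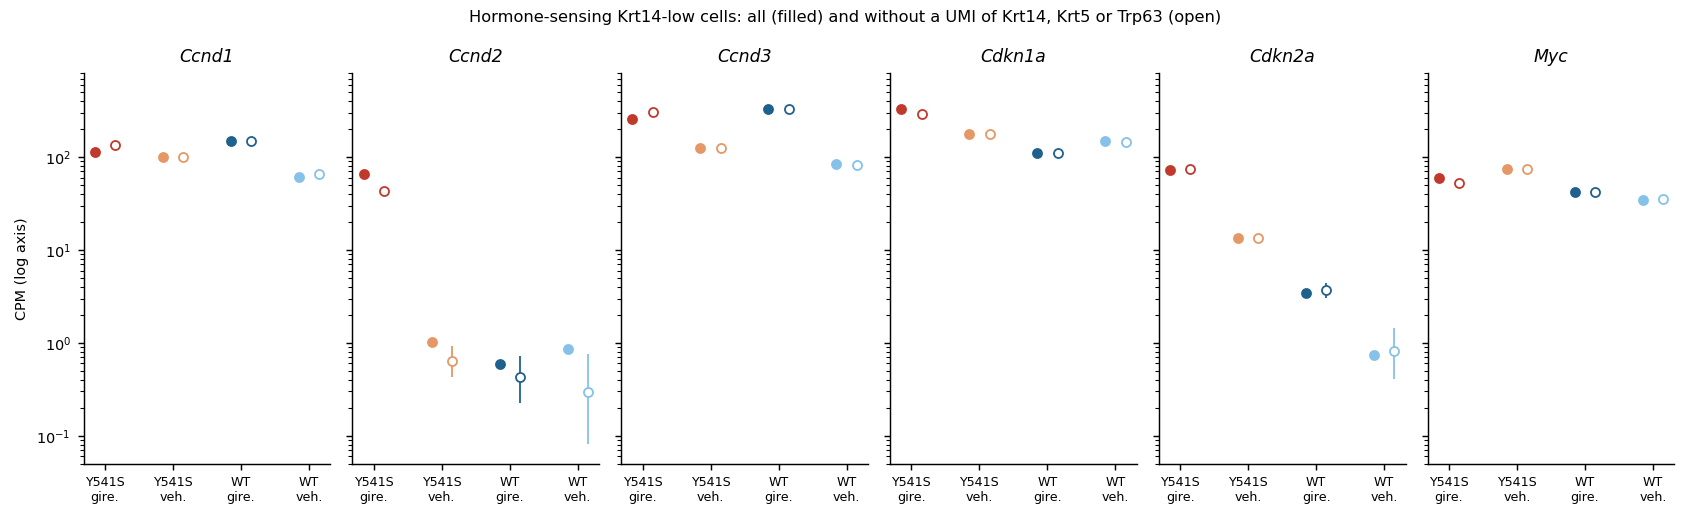
Level (CPM, log axis) of 6 genes in all Krt14-low hormone-sensing cells (filled) and in those without a UMI of Krt14, Krt5 or Trp63 (open, with 95% counting intervals), by library. Cdkn2a was at 71.9 and 73.8 CPM in Y541S giredestrant, and Ccnd2 at 66.0 and 42.6 CPM.

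In secretory cells, which are known to carry little estrogen receptor, Cdkn1a and Cdkn2c were called under giredestrant. Under giredestrant in Y541S, 2 of 6 genes that passed the filter were called, where 25.3% of 8548 genes were called. Cdkn1a had 102 CPM in Y541S giredestrant and 65.8 in Y541S vehicle, a called relative log2 ratio of 0.64 [0.53 to 0.75] that was 0.46 as a mean of single-cell CPM and 0.52 with TMM scaling, neither called. Cdkn2c had 8.03 CPM in Y541S giredestrant and 13.5 in Y541S vehicle, a called -0.74 [-1.09 to -0.41], and in WT 19.4 CPM under giredestrant and 9.82 under vehicle, a called 0.92 [0.59 to 1.27]. Cdkn2c was the 1 gene of 6 called in WT, where 9.45% of 8726 genes were called. Ccnd1, the main D cyclin of these cells, was not called under giredestrant in either genotype, with relative log2 ratios of 0.51 in Y541S and -0.31 in WT.

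Ccnd3 separated the genotypes in secretory cells. It had 57.8 CPM in Y541S giredestrant and 61.4 in Y541S vehicle, against 116 in WT giredestrant and 106 in WT vehicle. Y541S over WT was -0.81 [-0.92 to -0.70] between vehicle libraries, the 1 call among 6 genes where 6.73% of 8600 genes were called. With cells of several classes kept it was -0.56 and not called. Between giredestrant libraries it was -0.93 [-1.06 to -0.80], and Cdkn2c was also called lower, at -1.20 [-1.55 to -0.86], where 25.6% of 8668 genes were called. The basal check genes Krt5, Trp63 and Oxtr summed to 14.0, 26.6, 17.9 and 51.1 CPM in secretory cells in the order given. Ccnd2 had 6.85, 0.765, 0.738 and 3.30 CPM. The library with the most Ccnd2 had the lowest basal sum, but single basal genes had another order. Krt5 had 7.944, 3.098, 3.956 and 20.7 CPM, Trp63 4.479, 1.377, 1.006 and 8.552, and Krt14 62.37, 39.4, 16.36 and 78.43. Each was higher in Y541S giredestrant than in Y541S vehicle and WT giredestrant, and highest in WT vehicle. The part of basal RNA in the secretory levels of Ccnd2 and the other genes was not tested.

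In basal cells, which are also known to carry little estrogen receptor, Ccnd1 and Cdkn1a moved in opposite directions in the genotypes. Ccnd1 had 62.1 CPM (1477 UMIs) in Y541S giredestrant and 25.1 CPM (963 UMIs) in Y541S vehicle, and 19.6 CPM (385 UMIs) in WT giredestrant and 33.2 CPM (1925 UMIs) in WT vehicle. Its relative log2 ratio was 1.26 [1.14 to 1.38] in Y541S and -0.87 [-1.03 to -0.71] in WT. Cdkn1a had 198 CPM in Y541S giredestrant and 121 in Y541S vehicle, and 99.6 CPM in WT giredestrant and 171 in WT vehicle, with ratios of 0.66 [0.60 to 0.72] and -0.89 [-0.96 to -0.82]. All 4 of these ratios were called. In Y541S, 4 of 7 genes were called, all higher, where 13.8% of 8143 genes were called and 5.98% were called higher, and the others were Ccnd2 at 0.90 [0.85 to 0.95] and Cdkn1c at 0.60 [0.37 to 0.82]. With TMM scaling, Cdkn1a was at 0.57 and Cdkn1c at 0.51, neither called. As a mean of single-cell CPM, Cdkn1a was also at 0.57 and not called.

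In WT basal cells 4 of 7 genes were called under giredestrant, where 14.7% of 8310 genes were called. Beside Ccnd1 and Cdkn1a, both lower, these were Myc, with 151 CPM in WT giredestrant and 84.9 in WT vehicle, and Cdkn1c, with 13.1 and 6.88 CPM, both higher. Between vehicle libraries none of 6 genes was called in basal cells, Y541S over WT, where 6.78% of 8095 genes were called. Between giredestrant libraries Ccnd1, Ccnd2 and Cdkn1a were called higher in Y541S among 7 genes, with 21.7% of 8365 genes called. Fibroblast genes in basal cells summed to 417 CPM in Y541S giredestrant, 267 in Y541S vehicle, 305 in WT giredestrant and 148 in WT vehicle, with all 5 detected, and their part in the result was not tested.

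Cdkn2c was higher in cycling cells of the secretory, basal and Krt14-low hormone-sensing classes. Cells with at least 5 UMIs per 10,000 from mitosis genes were set against the other cells of their class where both groups held 50 cells or more. In basal cells Cdkn2c had 40.9 CPM in cycling and 3.03 in other cells of Y541S giredestrant, 50.4 and 5.04 in Y541S vehicle, and 52.99 and 3.45 in WT vehicle. In secretory cells it had 17.4 and 5.48 CPM in Y541S giredestrant, 29.2 and 8.56 in Y541S vehicle, 47.8 and 14.4 in WT giredestrant, and 36.1 and 4.75 in WT vehicle. All 7 of these were called. In Krt14-low hormone-sensing cells of Y541S vehicle it had 16.35 CPM in cycling and 3.82 in other cells, also called. There 12.9% of genes were called higher. In those of Y541S giredestrant it had 12.2 and 1.12 CPM (11 and 17 UMIs), below the level filter. In the same comparisons of basal cells, 15.1%, 12.0% and 15.1% of genes were called higher, and in those of secretory cells 9.79%, 10.2%, 13.6% and 13.4%. Cycling cells were deeper in each of them, with medians of 9213 and 5403 UMIs in cycling and other basal cells of Y541S giredestrant, for example.

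Other members were also called between cycling and other cells. Cdkn1b, an inhibitor best known from resting cells, was called higher in cycling basal cells of all 3 libraries compared, with 60.7 CPM in cycling and 37.2 in other cells of Y541S giredestrant. In secretory cells Cdkn1b was called higher only in WT vehicle, and in Krt14-low hormone-sensing cells only in Y541S giredestrant. Myc was called lower in cycling secretory cells of Y541S vehicle, WT giredestrant and WT vehicle, where 5.97%, 10.6% and 11.3% of genes were called lower. In cycling basal cells of WT vehicle, Myc and Cdkn1a were called lower and Ccnd1 and Ccnd2 higher, where 10.6% and 15.1% of genes were. Ccnd3 was called lower in cycling Krt14-low hormone-sensing cells, with 95.05 CPM in cycling and 268 in other cells of Y541S giredestrant and 80.3 and 129 in Y541S vehicle, where 13.7% and 8.71% of genes were called lower. In those cells of Y541S giredestrant, Cdkn2a had 78.5 CPM in 60 cycling and 71.5 in 1439 other cells, a relative log2 ratio of 0.12 [-0.25 to 0.46]. In Y541S vehicle it had 23.1 CPM in 112 cycling and 12.6 in 1962 other cells, a called 0.76 [0.44 to 1.06] where 12.9% of genes were called higher. The summed cycling cells thus held Cdkn2a UMIs, 71 in Y541S giredestrant and 99 in Y541S vehicle. The share of cycling cells with such a UMI is not given here, and doublets were kept in these sums. Cycling cells were 4.00% of Krt14-low cells in Y541S giredestrant, 5.40% in Y541S vehicle, 4.45% in WT giredestrant and 3.03% in WT vehicle.

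The partners of these genes in the G1 switch were followed in Krt14-low hormone-sensing cells. Of 20 CDKs, E2Fs, pocket proteins and related genes, 14 passed the filter under giredestrant in Y541S, 1 was called higher and 3 lower, around a median of -0.03 (relative log2 ratio), where 16.8% and 22.6% of all genes were called higher and lower. Cdk6, a kinase partner of D cyclins, was the one called higher, with 23.3 CPM in Y541S giredestrant and 7.23 in Y541S vehicle. Of 11 such genes in WT, 1 was called higher and none lower, where 14.4% and 17.8% of all genes were, and this was Cdkn2d, the remaining INK4 inhibitor, with 26.7 CPM in WT giredestrant and 6.57 in WT vehicle. For all genes tested these medians are 0 by construction.

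Genes of DNA replication and mitosis were called in different directions by class and genotype. In Y541S Krt14-low cells 3 of 6 S phase genes and 4 of 7 G2/M genes were called lower under giredestrant and none higher, against 22.6% of all genes called lower, with 11.3 CPM of Birc5, a gene of cell division, in Y541S giredestrant and 26.0 in Y541S vehicle. In WT Krt14-low cells 3 of 7 S phase genes were called higher and 1 lower, against 14.4% and 17.8% of all genes, with 43.2 CPM of the helicase gene Mcm6 in WT giredestrant and 14.1 in WT vehicle. In Y541S secretory cells all 10 S phase genes were called lower under giredestrant, with a median of -0.89, against 14.9% of all genes. In basal cells no S phase gene was called under giredestrant, among 5 in Y541S and 6 in WT. In Y541S vehicle over WT vehicle, 6 of 7 G2/M genes in Krt14-low cells and 7 of 9 in secretory cells were called higher, against 4.17% and 2.09% of all genes. Some of these genes also defined the cycling cells counted above.

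Targets of p53 were called in Y541S at a share near that of all genes. Of 10 that passed the filter in Krt14-low cells under giredestrant in Y541S, 2 were called higher and 2 lower, with a median of -0.18, where 39.4% of all genes were called in either direction. The p53 targets called higher were Phlda3, with 25.7 CPM in Y541S giredestrant and 9.28 in Y541S vehicle, and Sesn2, with 19.2 and 7.01 CPM. In WT, 4 of 8 were called lower and none higher, with a median of -0.47, where 17.8% of all genes were called lower, and Gdf15, a stress cytokine gene, had 0.787 CPM in WT giredestrant and 29.8 in WT vehicle. Among Myc partners and targets, 1 of 17 was called higher and 3 lower under giredestrant in Y541S, and 3 of 17 lower in WT, where 22.6% and 17.8% of all genes were called lower. Srm, the spermidine synthase gene and a Myc target, was called lower in both, with 27.6 CPM in Y541S giredestrant and 68.3 in Y541S vehicle, and 34.3 CPM in WT giredestrant and 62.2 in WT vehicle.

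Over the 13 sums of library and class, the genes whose CPM ran most like Ccnd1 among 6840 genes were Shank2, Cgnl1 and Eml5, with Pearson r of 0.987, 0.971 and 0.970. For Cdkn1a they were Spire1, Prune2 and Itgb4, with r of 0.947, 0.925 and 0.917. For Myc they were Ppp1r12a, Slc39a10 and Cald1, with r of 0.921, 0.882 and 0.878. The sums share libraries and classes, so these values describe likeness over cell classes and carry no p-value.

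Some of the 10 genes overlap another gene on the opposite strand in the annotation, and whether the counting used strand is not given in the sources used here. Ccnd1 (chr7:144929931-144939925) overlaps LTO1, which had 3.23 to 22.8 CPM over the sums, and Ccnd3 (chr17:47505051-47599691) overlaps Bysl, which had 9.95 to 22.5 CPM. Ccnd2 (chr6:127125162-127152193) and Cdkn1c (chr7:143458339-143461050) overlap predicted or long noncoding genes. The remaining members are Cdkn1a at chr17:29090976-29100727, Cdkn1b at chr6:134920401-134925513, Cdkn2c at chr4:109660876-109667189 and Myc at chr15:61985391-61990374, all in GRCm38.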

How the data were processed

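Gene-by-cell UMI counts of 4 libraries were used as deposited, as filtered matrices. They were made with Cell Ranger 6.0.1 on GRCm38, per the submitters' processing notes. Barcodes with at least 1000 UMIs, at least 500 genes and at most 15% mitochondrial UMIs were kept, and cells that met several class rules were left out. Counts were summed by library and class with Python 3.11.15, NumPy 2.4.6, SciPy 1.17.1 and pandas 2.3.3. Levels have exact Poisson intervals, ratios exact conditional binomial intervals, and shares Clopper-Pearson intervals, all for counting error only. With 1 library per group no count model was fitted, and ratios were centred on the median gene. Doublets were removed with Scrublet (Scanpy 1.11.5) in an alternative only, and edgeR 4.0.16 gave TMM factors. All 10 genes are named, with up to 3 called list genes furthest in each direction under giredestrant in hormone-sensing cells. Likeness was ranked over genes with a mean of at least 20 CPM. The members, lists and rules were chosen with earlier results of these data known. The code was tested on simulated data.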

Additional observations from a re-analysis of the deposited data

Results flagged for a closer look

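Among genes past the level filter in both comparisons, 4 cases had ratios past 1.5-fold in opposite directions under giredestrant in the genotypes; the difference itself was not tested, since each group was 1 library. Cdkn1a in Krt14-low hormone-sensing cells had a relative log2 ratio of 0.65 in Y541S and -0.76 in WT. These became -0.047 in Y541S and -0.304 in WT in cells without a UMI of Krt14, Krt5, Krt6a or Trp63, and the Y541S value was 0.398 with TMM scaling and the WT value -0.420 without centring, none of them past 1.5-fold. Cdkn1a in basal cells had 0.66 in Y541S and -0.89 in WT. That Y541S value was 0.574 with TMM scaling and 0.573 as a mean of single-cell CPM, neither past 1.5-fold. Ccnd1 in basal cells had 1.26 in Y541S and -0.87 in WT. Cdkn2c in secretory cells had -0.74 in Y541S and 0.92 in WT. Below the level filter in at least 1 comparison, Cdkn2c in Krt14-low cells had -1.70 in Y541S and 2.08 in WT, and Ccnd2 in Krt14-low cells had 5.80 and -0.87. Ccnd2 in secretory cells had 3.17 in Y541S and -2.22 in WT. Cdkn2b in basal cells had -0.74 [-1.95 to 0.36] in Y541S, on 10 and 26 UMIs, and 0.77 [-0.17 to 1.66] in WT, on 18 and 29 UMIs. Both Cdkn2b intervals included 0, as did that of the WT ratio of Ccnd2 in Krt14-low cells [-1.88 to 0.16].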

How the results depend on the processing

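Of 386 recomputed values of the 30 called ratios, 385 kept their direction and 1 reversed, which was Cdkn1a in Krt14-low cells of Y541S giredestrant over Y541S vehicle, at -0.047 without cells that had a UMI of Krt14, Krt5, Krt6a or Trp63. That selection, the one without Krt6a and the Krt14 ranges were chosen after seeing the data. Of the 386 values, 21 were under 1.5-fold, and 8 of the 30 called ratios fell under 1.5-fold in at least 1 alternative. Of 188 recomputed counts of called genes, 156 were within 1.5 times the count reported. With TMM, the 4 higher calls in Y541S Krt14-low cells became 2 higher, and Myc was called lower at -0.804. For giredestrant over vehicle in Y541S Krt14-low cells (4 genes called) the count was 2 at 2-fold and 7 at a minimum of 3 CPM or with no CPM filter. In secretory cells (2) it was 1 with cells given to their highest-scoring class, 0 with the mean of single-cell CPM, 1 without cycling cells, 1 with TMM, 0 at 2-fold and 6 with no filter. In basal cells (4) it was 2 with TMM and 1 at 2-fold. For giredestrant over vehicle in WT, it was 1 at 2-fold and 7 with no filter in Krt14-low cells (3), and 0 at 2-fold in basal cells (4). In WT secretory cells (1) it was 2 with cells of several classes kept, 0 without cycling cells, 0 at 2-fold and 3 with no filter. For Y541S vehicle over WT vehicle in Krt14-low cells (2) it was 1 at a mitochondrial limit of 7%, 1 without a UMI of Krt14, Krt5 or Trp63, 1 centred on genes with 20 UMIs, 0 at 2-fold, 4 at 3 CPM and 6 with no filter. In secretory cells (1) it was 0 with cells of several classes kept, 0 at 2-fold and 2 with no filter, and in basal cells (0) it was 1 with the mean of single-cell CPM. For Y541S giredestrant over WT giredestrant it was 7 at 3 CPM and 7 with no filter in Krt14-low cells (4), 1 at 2-fold in secretory cells (2) and 5 with no filter in basal cells (3). The causes were not tested. No paired analysis was possible because each group had 1 library, and for the same reason no replicate could be left out. Y541S giredestrant had the shallowest cells, which limits what can be said of genes under 10 CPM there.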
